A study of Homo sapiens and Mus musculus with 47 samples.

Results

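The genes described here are the protein-coding ZNF genes of human chromosome 19. They were chosen by name and place: a gene type of protein coding, a position on chromosome 19 and a symbol made of ZNF, a number and at most 1 further letter. The rule itself used no measured value, but it was set with earlier results of these data known. The rule found 252 of the 57820 genes in the count tables, and the same symbol pattern found 262 protein-coding genes on other chromosomes. The 252 gene identifiers carried 246 names, because 6 names belonged to a pair of identifiers. Of the 252 genes, 238 lay in 10 clusters of at least 5 genes separated by gaps of more than 500 kb, and 14 lay outside them.

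The series developed Chrom-seq, in which a reader domain that binds a histone mark brings the peroxidase APEX2 to chromatin, so that nearby RNA is biotinylated, pulled down and sequenced. HCT116, a colorectal cancer line, expressed GCN4 and APEX2 fusion constructs for 48 h, either with the TAF3 reader of H3K4me3 (HCT116 TAF3, 3 libraries) or as the reader-free control (HCT116 Control, 3 libraries). HEK293T, an embryonic kidney line, gave ordinary RNA-seq of cells with the CBX7 reader of H3K27me3 (3 libraries) and of their Control (3 libraries). HEK293T also gave RNA-seq after transfection of antisense oligonucleotides (ASOs) against the long noncoding RNAs SETD5-AS1 (3 libraries), LINC00641 (2 libraries) or LINC00662 (3 libraries), or of the negative control oligonucleotide (NC ASO, 3 libraries). The labels give every library the constructs and the same labelling step, 500 µM biotin-aniline for 30 min and 1 mM H2O2 for 1 min, and do not say whether replicates were separate cultures, so the p-values measure the spread between these libraries, which may be technical. The study's own text, however, sets the CBX7 transcriptome against untreated HEK293T cells. If the Control libraries were untreated, transfection and labelling cannot be told apart from the reader in the CBX7 comparison. The 3 ASO comparisons share the NC ASO libraries and are not independent of each other.

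C2H2 zinc finger proteins bind DNA through arrays of small zinc-holding fingers. On chromosome 19 they form a large family that grew by tandem duplication, and many members carry a KRAB domain that recruits TRIM28 (KAP1) and the H3K9 methyltransferase SETDB1 to silence transposable elements. Their own genes are known to carry H3K9me3 over the 3′ exons, where ZNF274, itself a member, recruits the same silencing machinery.

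The members were also described by sequence, which the rule had not used. Since the symbol ZNF stands for zinc finger, this is no independent check of the name. Fingers of this class are joined by a conserved linker, the H/C link, which was searched as a DNA pattern with degenerate codon ends. The coding strand of the longest annotated coding sequence (GENCODE v44 on GRCh37) held at least 1 in-frame copy in 212 of the 245 members with a match, or 86.5%, against 18 of 1183 other coding genes of the chromosome, or 1.5%. Of these 18 other genes, 11 had a symbol that starts with Z. The median was 6 linkers per member, and ZNF850 had the most, 25. A stretch of ZNF420 is shown because this member recurs in the results, with its linkers in capitals (GRCh37, chr19:37618363-37618558, plus strand, coding exon).

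ZNF420: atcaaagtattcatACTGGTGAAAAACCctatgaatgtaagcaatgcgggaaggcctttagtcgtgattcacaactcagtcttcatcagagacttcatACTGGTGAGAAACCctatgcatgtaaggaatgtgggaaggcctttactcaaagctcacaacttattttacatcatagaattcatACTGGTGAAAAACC

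The repeats bear on the counts, since reads from near-identical stretches may be split between genes. The median member shared 0.4% of its 50-base coding windows with another member, 116 of 245 shared none, and 26 shared over 20%. The spans of 181 members overlapped another gene, 110 of them on the same strand, and the strand setting of the counting is not given in the sources used here, so reads of overlapping genes cannot be told apart.

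Library totals were 14213105 to 17445889 counts in HCT116, 8258859 to 10995383 with CBX7 against 12109803 to 15330874 in its Control, and 11619315 to 15023098 in the ASO set. The HCT116 Control libraries held EPCAM at 341 to 356 CPM (counts scaled to library size, with TMM factors) and the HEK293T Control libraries at 7.63 to 8.47 CPM, while the neurofilament gene NEFM was at 0 and at 326 to 395 CPM. VIL1 and LGALS4, further colon markers, were below 1 CPM in both lines. With the CBX7 reader NEFM was at 176 to 185 CPM, and the keratin gene KRT8 was at 277 to 317 CPM against 191 to 215 in Control. KRT8 was at 422 to 491 CPM with the NC ASO and at 149 to 282 CPM with the targeting ASOs. The part of such differences between libraries in the results was not tested. Each ASO lowered its target against the NC ASO, SETD5-AS1 by a log2 fold change of -3.62, LINC00641 by -4.81 and LINC00662 by -3.00. SETD5-AS1 was also lower with the LINC00641 and LINC00662 ASOs (-0.82 and -0.83), at 29 to 30.6 and 28.1 to 29.3 CPM. It was at 52.9 to 53.6 CPM with the NC ASO and, scaled in a separate table, at 29.1 to 32.1 CPM in the HEK293T Control libraries. The human CBX7 gene was at 41.8 ± 2.32 CPM (SD, n = 3) with the reader and 16.5 ± 1.87 in Control; the reader is a mouse chromodomain, so this value does not measure it directly.

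A member was tested where its counts summed to more than 3 per library. This left 140 members in HCT116, 182 in the CBX7 comparison and 179 to 180 with the ASOs; 137 were tested in all 5 comparisons with a control and 66 in none. Of those not tested, 75 in HCT116 and 48 in the CBX7 set had no count in any library. A member was called where the edgeR quasi-likelihood test gave an adjusted p (Benjamini-Hochberg over all genes) under 0.05 and the log2 fold change was 0.75 or more in either direction, as the study set them.

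**Figure D1:**
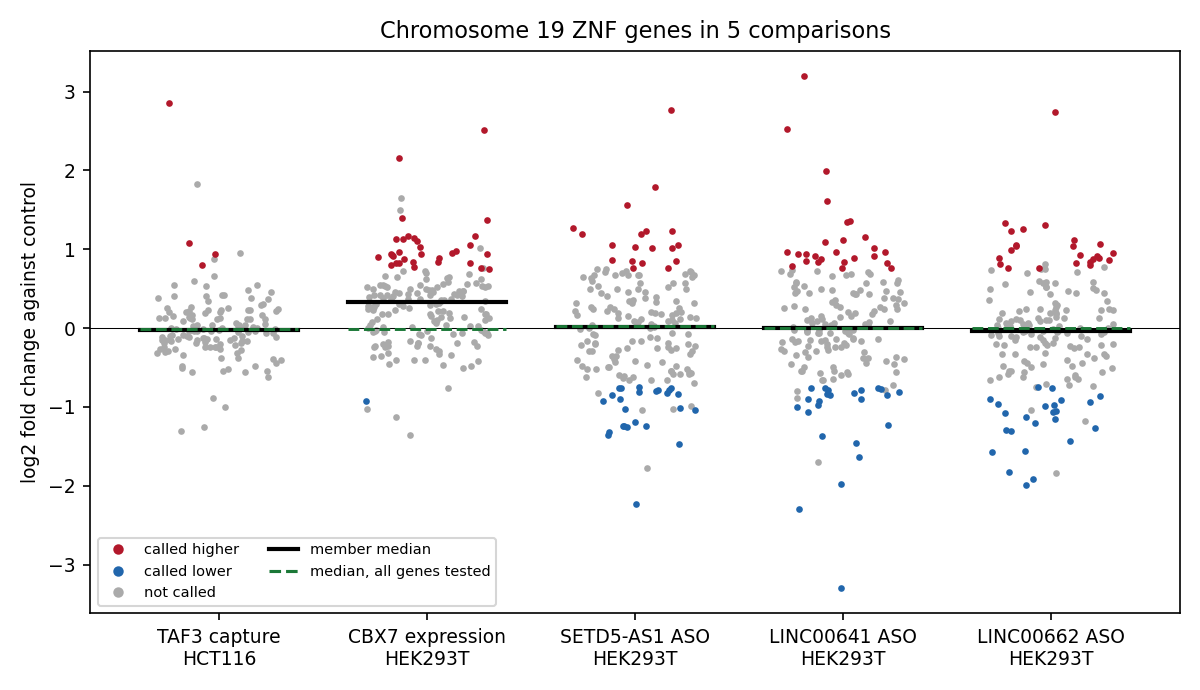
The log2 fold change of each member tested, by comparison with its control, with the member median as a black line and the median of all genes tested as a dashed green line. The member median stood at 0.33 with CBX7 expression and between -0.03 and 0.01 in the other 4 comparisons.

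With expression of the CBX7 reader the member calls lay almost all in one direction. Of 182 members tested, 32 were called higher and 1 was called lower. The 32 were 17.6% of the members, where 4.17% of all 18204 genes tested were called higher and 3.48% were called lower. Among other groups, 7.62% of the ZNF genes on other chromosomes and 4.57% of the other coding genes of chromosome 19 were called higher.

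The shift was broader than the calls. In bulk RNA a change per cell and a change in the number of cells that express a gene cannot be told apart. The median log2 fold change was 0.33 over the members, 0.08 over ZNF genes elsewhere, -0.09 over other chromosome 19 coding genes and -0.01 over all genes. A positive value was found in 132 of 182 members, or 72.5%, against 48.6% of all genes tested. The summed level of the members was 2606 ± 32.6 CPM (SD, n = 3) with CBX7 and 2218 ± 18.8 CPM in Control, and the libraries did not overlap. The HEK293T libraries of the ASO set, without this reader in their labels, were scaled in a separate table. Their mean summed level was 2622 CPM with the NC ASO and 2428 to 2589 CPM with the targeting ASOs. These means were all above that of Control, and the difference was not tested. With no threshold on the fold change, 67 members passed higher and 7 lower, where 13.8% and 15.4% of all genes did. The CBX7 libraries were shallower than every Control library; the part of depth in this result was not tested.

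ZNF57 rose most among members with a mean of at least 20 counts. Its levels were 16.4, 16.5 and 18.3 CPM with CBX7 and 5.39, 6.46 and 7.40 CPM in Control, a log2 fold change of 1.4 ± 0.146 (SE; adjusted p = 8.2e-06). The lowest CBX7 library was above every Control library, as the rule for naming the largest changes required.

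ZNF829 was at 12.8, 15.4 and 17.6 CPM with CBX7 and at 6.48, 6.55 and 7.82 CPM in Control (log2 fold change 1.14 ± 0.154, adjusted p = 6.5e-05). ZNF230 was at 8.04, 9.71 and 10.3 CPM against 3.68, 4.27 and 4.90 CPM (1.13 ± 0.180, adjusted p = 0.000248). Both were higher in all 3 libraries, as the same rule required. ZNF416 rose from a mean of 3.08 to 7.01 CPM (1.17 ± 0.236, adjusted p = 0.00161). ZNF682 rose from 1.61 to 3.70 CPM (1.17 ± 0.318, adjusted p = 0.0115), and lost its call without CBX7 replicate 3 (adjusted p = 0.084).

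Members with a described part in gene control were among those that rose. ZNF274, which brings SETDB1 and TRIM28 to ZNF gene 3′ ends, was at 50.03, 52.2 and 54.3 CPM with CBX7 and at 28.7, 30.0 and 32.5 CPM in Control (0.78 ± 0.0882, adjusted p = 1.65e-05). The groups lay far apart, but the change was close to the fold threshold and fell to 0.74 without Control replicate 3. ZNF473, a part of the U7 machinery that processes histone pre-mRNA, was at 34.5, 39.5 and 40.9 CPM against 17.7, 20.8 and 21.5 CPM (0.94 ± 0.108, adjusted p = 1.9e-05). ZNF420 (APAK), known as an inhibitor of p53, rose from 11.4 to 24.6 CPM (1.11 ± 0.119, adjusted p = 1.05e-05). ZNF350 (ZBRK1), a partner of BRCA1 in repression of GADD45A, rose by 0.81 (adjusted p = 0.0108).

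Other risers were ZNF461, from 5.56 to 11.5 CPM (1.05 ± 0.174), ZNF441, from 3.81 to 7.53 CPM (0.98 ± 0.181), ZNF329, from 4.19 to 8.10 CPM (0.96 ± 0.191), and ZNF296, a KLF4-binding factor of embryonic stem cells, from 4.38 to 8.14 CPM (0.90 ± 0.179). Their adjusted p-values were between 0.000328 and 0.00142. The one member called lower was ZNF580, at 2.08, 2.13 and 3.60 CPM with CBX7 and 4.07, 4.91 and 5.64 CPM in Control (-0.93 ± 0.254, adjusted p = 0.0118); it lost its call without Control replicate 1 (adjusted p = 0.0549), CBX7 replicate 2 (0.0628) or CBX7 replicate 3 (0.0645). ZNF580 overlaps ZNF581 and CCDC106.

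**Figure D2:**
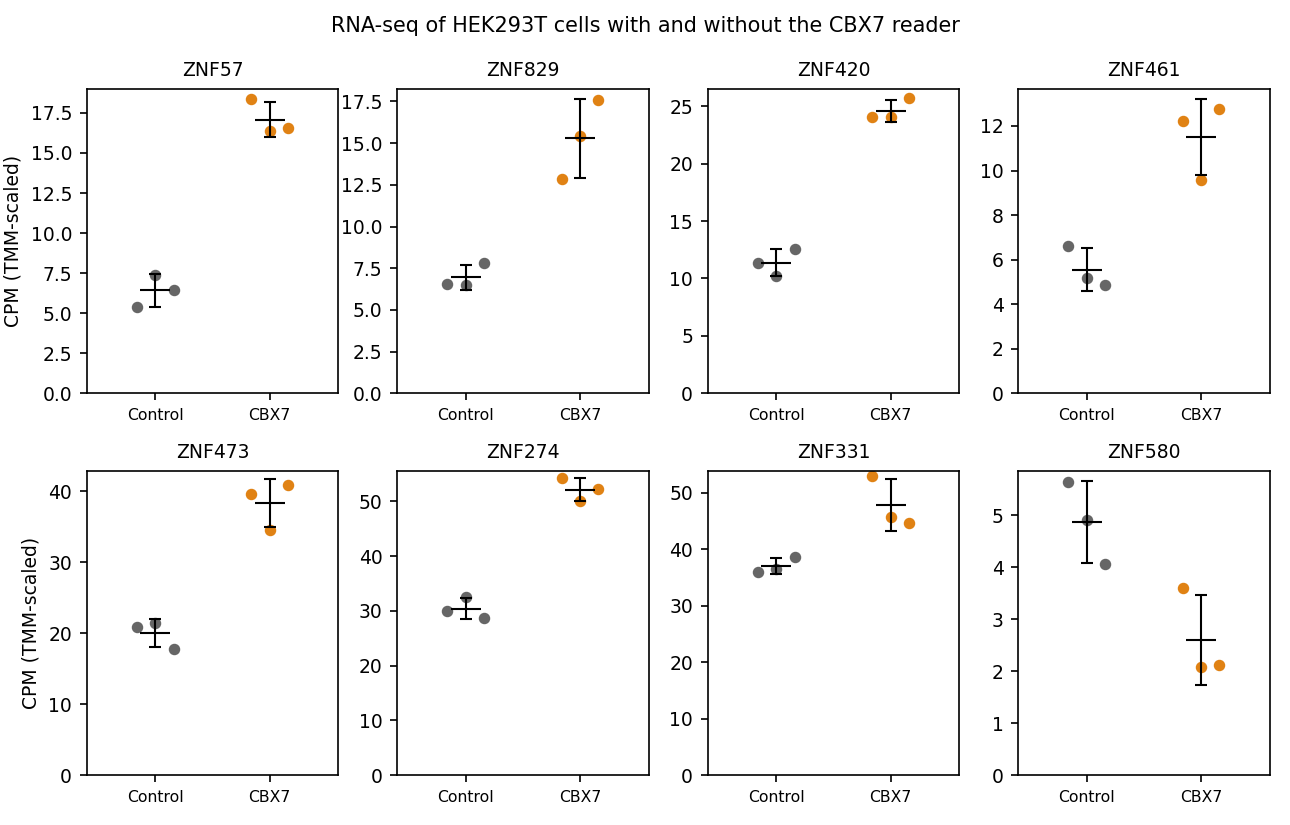
Level of 8 members in each HEK293T RNA-seq library in CPM, with CBX7 (orange) and in Control (grey); the bars are the mean and SD of 3 libraries. In 7 of the 8 every CBX7 library was above every Control library, and in ZNF580 every CBX7 library was below them. For ZNF57, ZNF829 and ZNF580 the naming rule required this separation, and its share over all members was not taken.

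The repressors of transposable elements in the fixed list of members with a described role were not called, and ZNF93 could not be tested. ZNF91, which silences SVA elements, was at 17.4 ± 1.18 CPM with CBX7 and 17.5 ± 2.31 in Control (SD, n = 3; log2 fold change 0.01 ± 0.125). ZNF808, which acts on MER11 elements, was at 2 and 1.96 CPM (0.01 ± 0.318). ZNF649 and ZNF765, which act on L1 elements, had values of 0.30 ± 0.118 and 0.54 ± 0.145, of which only the second passed the adjusted p (0.0106) and neither the fold threshold. ZNF93, a repressor of older L1 elements, had no count in any library of any set. ZNF331, an imprinted gene, was at 47.7 ± 4.59 CPM against 37.0 ± 1.36 (0.36 ± 0.0915, adjusted p = 0.00712), and ZNF224, a repressor of aldolase A, and ZNF568, a KRAB factor needed in mouse gastrulation, had values of 0.02 ± 0.128 and 0.34 ± 0.153 without passing.

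Most clusters had a positive median with CBX7. Numbered along the chromosome, cluster 3 (chr19:11594242-12750912, hg19) had a median of 0.54, and all 14 of its 29 genes that were tested had a positive value, 4 of them called. Cluster 4 (chr19:19779605-24312654) had 0.42 and cluster 8 (chr19:52074551-54083523) 0.45, with 3 of 23 and 5 of 26 members tested called higher. Cluster 10 (chr19:57702868-58992597), next to the end of the long arm, had 0.31 with 8 of 30 called higher. Clusters 2, 6 and 7 had 0.11, 0.35 and 0.42, with 0 of 10, 4 of 24 and 3 of 19 called higher. Clusters 1, 5 and 9 had medians of -0.16, -0.05 and -0.20 over 5, 5 and 13 members tested, with 1, 0 and 1 called higher. Over all genes tested 4.17% were called higher. Grouping by number of linkers, which was chosen after the values were seen, gave medians of 0.14 for 70 members with 0 to 4 linkers, 0.43 for 80 with 5 to 9 and 0.38 for 32 with 10 or more. Of these, 18.6%, 18.8% and 12.5% were called higher, where 17.6% of all members tested and 4.17% of all genes were.

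The 32 proteins that work with KRAB zinc finger factors, among them TRIM28, SETDB1, the HP1 proteins and the TASOR and MORC2 complexes, gave no call past both thresholds with CBX7. Of 31 tested, edgeR called 0 higher and 0 lower and DESeq2 also called 0, while 8 and 5 had an unadjusted p under 0.05. With the adjusted p alone, 8 passed higher and 3 lower, where 13.8% and 15.4% of all genes did. Their median log2 fold change was 0.04.

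Capture by TAF3 in HCT116 asked whether the RNA of these genes lies near H3K4me3 chromatin. Of 140 members tested, 4 were called higher, or 2.86%, where 3.34% of all 18731 genes tested were, so the share was near the background. No member was called lower by edgeR or DESeq2, where 3.28% of all genes were; 18 had an unadjusted p under 0.05 in that direction. With the adjusted p alone, 16 passed higher and 9 lower, where 17.9% and 17.0% of all genes did. The member median was -0.02 and that of all genes -0.01. The summed level was 2002 ± 34.1 CPM with TAF3 and 2026 ± 31.2 CPM in Control (SD, n = 3).

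ZNF546 was at 4.41, 5.42 and 6.46 CPM with TAF3 and 1.85, 2.27 and 3.51 CPM in Control (log2 fold change 1.08 ± 0.221, adjusted p = 0.000112). ZNF296 was at 5.62, 5.62 and 6.37 CPM against 1.96, 3.37 and 3.86 CPM (0.94 ± 0.206, adjusted p = 0.000295). ZNF324 was at 6.53, 8.01 and 9.11 CPM against 3.87, 4.79 and 4.86 CPM (0.81 ± 0.170, adjusted p = 0.000187). None of the 3 had overlapping groups, as the rule for naming the largest changes required. ZNF296 and ZNF324 fell under the fold threshold without Control replicate 2 (0.70 and 0.71), and ZNF324 also without TAF3 replicate 2 (0.69), and ZNF324 shares 31.7% of its coding windows with another member. The fourth, an identifier of ZNF223 that spans its namesake, rested on under 1 CPM in every library.

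Among members with a described role, ZNF765 was at 16.7 ± 1.23 CPM with TAF3 and 12.6 ± 2.23 in Control (0.41 ± 0.119, adjusted p = 0.00603), while ZNF274 was at 18.4 ± 1.93 against 22.5 ± 0.961 CPM (-0.29 ± 0.100, adjusted p = 0.0202) and ZNF224 at 20.7 ± 0.907 against 25.4 ± 1.41 CPM (-0.30 ± 0.0933, adjusted p = 0.0101). All 3 were under the fold threshold. ZNF91, ZNF649 and ZNF808 had values between -0.24 and -0.15 that did not pass the adjusted p. Of the partners, edgeR and DESeq2 called 0 of 31 higher, with 12 at an unadjusted p under 0.05, and edgeR called 1 lower, the H3K9 demethylase KDM4B (-0.81, adjusted p = 4.3e-13).

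With the ASOs members were called in both directions, at shares near those of all genes. The SETD5-AS1 ASO gave 19 members higher and 25 lower of 179, against backgrounds of 12.9% and 11.5% of all genes tested; the LINC00641 ASO gave 26 and 24 of 180, against 11% and 11.5%; and the LINC00662 ASO gave 24 and 24 of 180, against 11.6% and 13.3%. In percent of members these were 10.6% and 14%, 14.4% and 13.3%, and 13.3% and 13.3%. The medians were 0.01, 0.00 and -0.03, near those of all genes. The split between directions depended on the scaling: with library totals alone it was 35 and 13 for SETD5-AS1 and 33 and 16 for LINC00641, where the median of all genes moved from 0.03 to 0.17 and from 0.00 to 0.08. The named members kept their direction under that scaling, but ZNF628 (-0.643) and ZNF793 (-0.66) lost their SETD5-AS1 call, and ZNF793 (-0.696), ZNF329 (-0.707), ZNF845 (-0.718), ZNF441 (-0.732) and ZNF765 (-0.748) lost their LINC00641 call. Under it ZNF224 (0.81) and ZNF546 (0.79) gained a SETD5-AS1 call, and ZNF224 (0.776) and ZNF331 (0.756) a LINC00662 call. With the adjusted p alone, 48 members passed higher and 51 lower for SETD5-AS1 (backgrounds 26.9% and 25.8%), 51 and 41 for LINC00641 (25.2% and 24.4%), and 47 and 52 for LINC00662 (27.6% and 26.8%).

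Since the 3 comparisons share the NC ASO libraries, the members named for a call in one direction with every targeting ASO are given as levels. ZNF607 was at 0.359 to 0.695 CPM in the NC ASO libraries and at 2.94 to 4.32 CPM in the 8 targeting libraries. ZNF233 was at 0.620 to 1.17 and 1.64 to 4.05 CPM. ZNF283 was at 3.39 to 3.72 and 6.78 to 12.6 CPM. None of these has a role described here. In none of them did the NC ASO range meet the targeting range, which their choice by size of change favours.

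ZNF461 and ZNF529 were also higher with each targeting ASO, at 6.14 to 8.77 CPM against 2.87 to 3.42 and at 28.4 to 39.6 CPM against 13.1 to 16.6. ZNF296 went the other way, at 25.1 to 26.8 CPM with the NC ASO and 4.64 to 7.96 CPM with the targeting ASOs. ZNF574 was at 64.0 to 65.9 CPM and 21.8 to 28.7 CPM, and ZNF492 at 1.74 to 1.86 and 0.329 to 0.913 CPM. ZNF492 shares 62.2% of its coding windows with another member, and reads may be split between them. ZNF574 overlaps GRIK5 and ZNF529 overlaps ZNF382.

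The log2 fold changes with the SETD5-AS1, LINC00641 and LINC00662 ASOs were 2.77, 2.53 and 2.74 for ZNF607, with adjusted p between 1.78e-07 and 2.13e-05. They were -2.23, -2.29 and -1.83 for ZNF296, with adjusted p between 2.84e-12 and 3.85e-10. ZNF574 fell by 1.35, 1.46 and 1.31 on the log2 scale, and ZNF473, the histone pre-mRNA factor, by 1.02, 1.37 and 1.15. ZNF473 overlaps VRK3. ZNF428, which overlaps SRRM5, rose by 1.27, 0.96 and 1.33, ZNF536, a repressor of neuronal differentiation, by 1.03, 1.15 and 1.06, and ZNF175 (OTK18), known from HIV-infected macrophages, by 1.01, 1.12 and 1.04. ZNF350 was lower by 1.20, 1.00 and 1.27.

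The HEK293T Control libraries of the CBX7 set, whose labels name no ASO, give a second reference, counted and scaled in a separate table and so set beside these values without a test. ZNF607 was at 2.46 to 3.65 CPM there, ZNF296 at 3.84 to 5.23 and ZNF574 at 27.3 to 32.9 CPM. On the log2 scale these Control levels were nearer to the 8 targeting libraries than to the NC ASO libraries in 7 of the 8 members named for a shared direction. These members were picked for their distance from the NC ASO libraries, which favours this count, and the share over all members was not taken. ZNF529, at 18.2 to 22.8 CPM, was nearer to the NC ASO libraries.

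**Figure D3:**
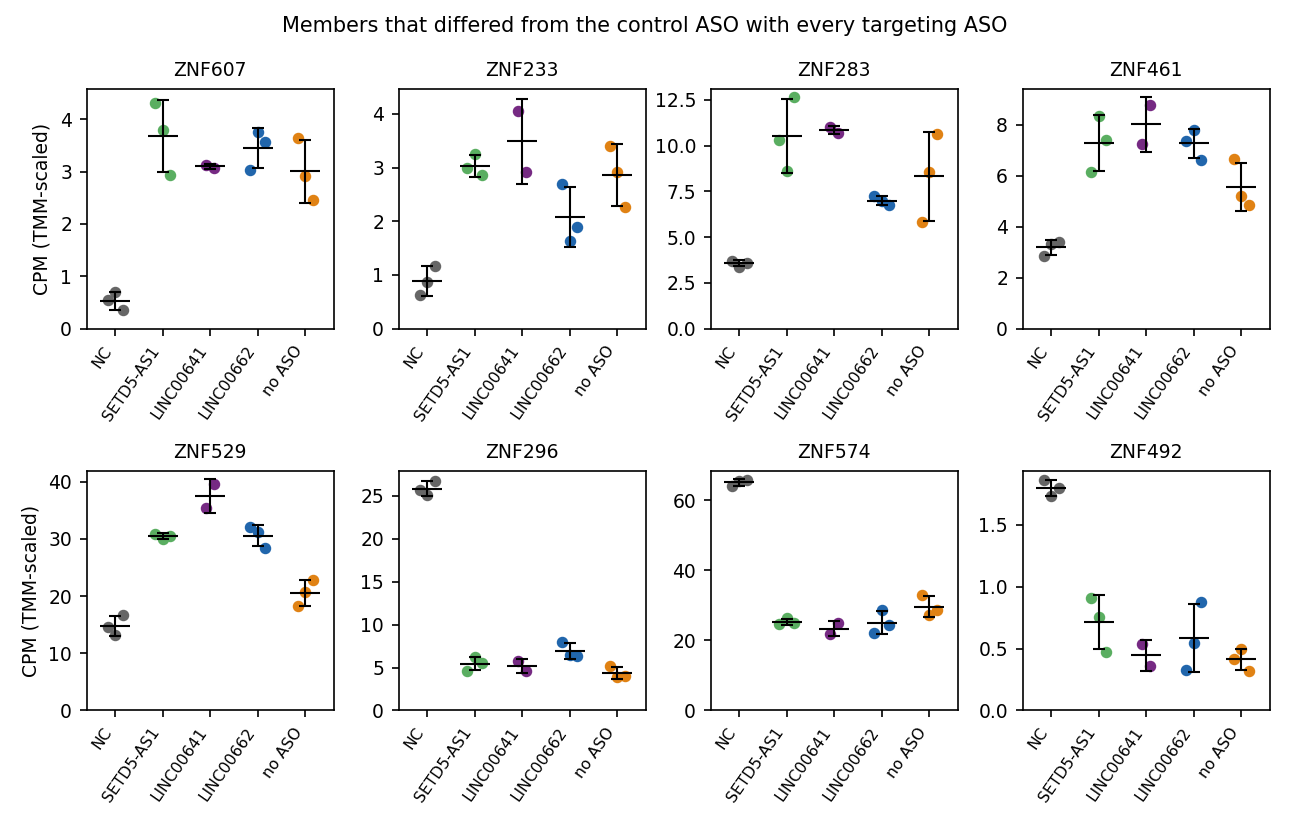
Level in CPM of the 8 members named for a call in one direction with every targeting ASO, in each library with the NC ASO, the 3 targeting ASOs and in Control cells without an ASO (orange, scaled in a separate table); the bars are the mean and SD. The NC ASO libraries lay apart from every targeting library in each panel, which the choice of these members favours. ZNF607 and ZNF296 in Control cells lay near the targeting libraries.

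The members with a described role divided. ZNF331 was at 24.4 to 25.4 CPM with the NC ASO and had log2 fold changes of 0.85, 0.89 and 0.72 (adjusted p between 1.83e-07 and 5.48e-07), the last under the fold threshold. ZNF224 had 0.67, 0.94 and 0.74, of which the second was called. ZNF765 had -0.62, -0.82 and -0.64, of which the second was called; it lost the call without LINC00641 replicate 2 (-0.61) or NC replicate 2 (-0.74). ZNF274, ZNF91, ZNF649, ZNF808 and ZNF568 were not called with any ASO, with values between -0.47 and 0.50.

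Further members named by size of change were ZNF429, higher by 1.23, 0.97 and 0.95, and ZNF791, by 0.77, 1.09 and 1.23; the first of the ZNF791 calls was lost with DESeq2 (0.749) and without NC replicate 1 (0.659) or SETD5-AS1 replicate 2 (0.729). ZNF28 was lower by 1.25, 0.90 and 0.91, ZNF845 by 1.24, 0.79 and 0.87, ZNF329 by 1.26, 0.78 and 1.21, and ZNF416 by 1.24, 0.98 and 1.07. The LINC00641 call of ZNF845 was lost without LINC00641 replicate 2 (-0.736) and that of ZNF329 without LINC00641 replicate 3 (-0.731). ZNF628 was called lower with SETD5-AS1 (-0.78) and LINC00641 (-1.23), and lost the first call without NC replicate 1 (-0.666) or SETD5-AS1 replicate 3 (-0.677). ZNF28, ZNF845 and ZNF765 share 15.9%, 9.2% and 11.4% of their coding windows with another member.

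The cluster medians differed in sign with the ASOs. Cluster 4 had medians of -0.43, -0.39 and -0.56 with the SETD5-AS1, LINC00641 and LINC00662 ASOs, with 4, 5 and 6 members called lower and 1 called higher each time, of 23 to 24 tested. Cluster 8 had -0.50, -0.27 and -0.27, with 7, 8 and 5 called lower and 2, 4 and 4 called higher of 26. Cluster 6 (chr19:36673188-38307940) had 0.32, 0.54 and 0.34, with 5, 8 and 6 called higher and 2 called lower each time, of 23 to 24 tested. Cluster 7 (chr19:44029649-45004576) had 0.34, 0.33 and 0.24, with 4 called higher each time and 1, 0 and 1 called lower of 19. Over all genes 11% to 12.9% were called higher and 11.5% to 13.3% lower. These are values against one set of NC ASO libraries. LINC00662 itself lies at chr19:28175488-28284848, between cluster 4 and the 2 members ZNF536 and ZNF507; ZNF507 had values of 0.72, 0.92 and 1.06.

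**Figure D4:**
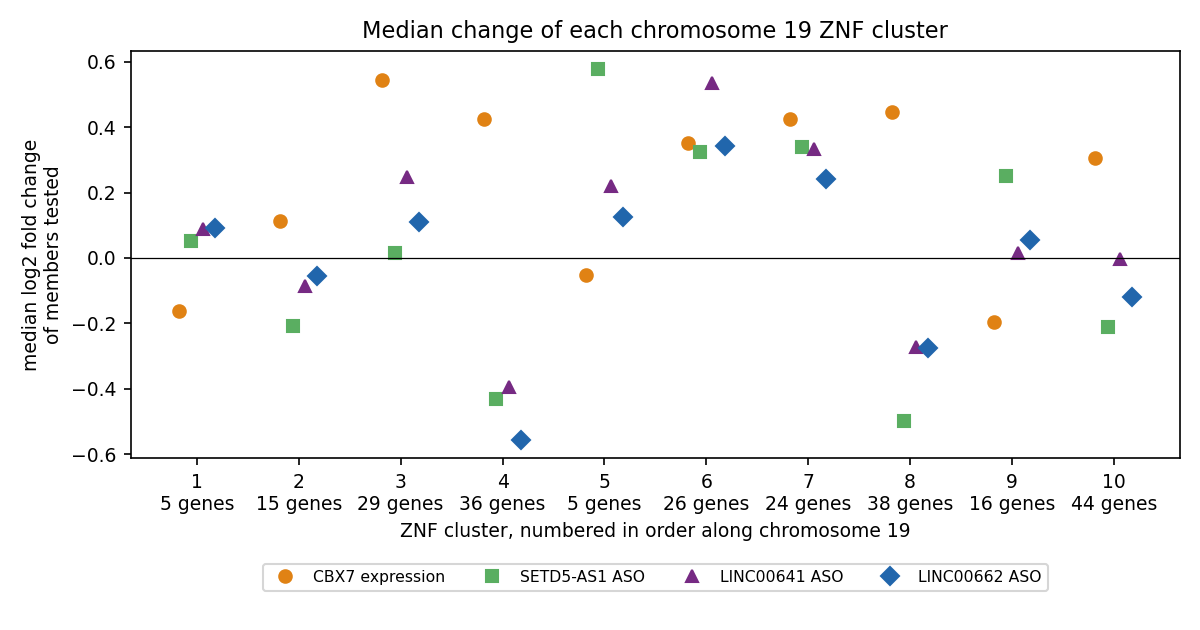
Median log2 fold change of the members tested in each of 10 clusters, numbered along chromosome 19, with CBX7 expression and with each ASO against its control. Cluster 4 was at 0.42 with CBX7 and between -0.56 and -0.39 with the ASOs, while cluster 6 was above 0.3 in all 4 comparisons.

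Among the partners, TRIM28, the KRAB corepressor, was at 595.9 CPM on average with the NC ASO and 300.7, 300.2 and 305.9 CPM with the SETD5-AS1, LINC00641 and LINC00662 ASOs (log2 fold changes -0.98, -0.97 and -0.89; adjusted p between 2.27e-11 and 2.58e-08). The histone chaperone DAXX was lower (-1.16, -1.09 and -0.94), and the de novo DNA methyltransferase DNMT3A (1.62, 1.77 and 1.79) and the H3K9 methyltransferase EHMT1 (0.76, 0.86 and 1.15) were higher. In all, 4, 2 and 4 of 31 partners were called higher and 3 each time lower, counts near the shares over all genes of 11% to 12.9% higher and 11.5% to 13.3% lower. SETDB1 was not called with any ASO. All these values are against the same NC ASO libraries, so the 3 ASOs do not give independent results for a partner.

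LINC00662, SETD5-AS1 and LINC00641 ASOs were also set against each other directly, which leaves the NC ASO libraries out. The LINC00662 ASO against the mean of the other two called 4 of 179 members higher and 4 lower, 2.23% each, where 2.38% and 7.32% of all genes tested were called. With the adjusted p alone, 11 passed higher and 22 lower, against backgrounds of 16.1% and 16.5%. The member median was -0.08 and that of all genes 0.00. Lower were ZNF227, ZNF420, ZNF567 and ZNF599, and higher were ZNF793, ZNF441, ZNF569 and ZNF442.

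ZNF227, a multi-finger protein with 11 linkers, was at 3.01, 3.79 and 3.95 CPM with the LINC00662 ASO. The other 5 targeting libraries held it at 15.6 to 19.01 CPM with a median of 18.2, and the NC ASO libraries at 14.1, 15.3 and 15.5 CPM. The log2 difference was -2.31 ± 0.132 (SE; adjusted p = 8.3e-11), and every LINC00662 library was below every other.

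ZNF420, the p53 inhibitor, was at 3.79, 4.01 and 4.58 CPM with the LINC00662 ASO and at 14.7 to 17.9 CPM, with a median of 16.4, in the other targeting libraries. The NC ASO libraries lay between, at 7.68, 8.90 and 10.8 CPM. The log2 difference was -1.98 ± 0.133 (adjusted p = 8.26e-10). Against the NC ASO this member was therefore called in both directions, higher with the SETD5-AS1 ASO (0.86) and the LINC00641 ASO (0.85) and lower with the LINC00662 ASO (-1.07). The calls with the LINC00641 ASO and the SETD5-AS1 ASO fell under the fold threshold without NC replicate 1 (0.715 and 0.741), and the former also without LINC00641 replicate 3 (0.712). ZNF420 overlaps 5 genes, ZNF585A among them.

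ZNF567, which overlaps ZNF850, was at 6.05, 6.93 and 8.81 CPM with the LINC00662 ASO and at 17.3 to 30.5 CPM, with a median of 22.4, in the other targeting libraries. The log2 difference was -1.77 ± 0.126 (adjusted p = 1.86e-09). The NC ASO libraries, at 24.9, 27.7 and 33.5 CPM, lay above the LINC00662 libraries too. The fourth lower member, ZNF599, had -0.89 (adjusted p = 0.00828) and a smaller count.

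The members higher with the LINC00662 ASO than with the other targeting ASOs had smaller differences. ZNF793 was at 5.32, 5.88 and 6.64 CPM against 2.20 to 4.07 CPM in the other targeting libraries (0.87 ± 0.193, adjusted p = 0.00182). ZNF441 was at 4.93, 5.12 and 5.98 CPM against 2.12 to 3.51 CPM (0.81 ± 0.188, adjusted p = 0.00254), and ZNF569 at 18.1, 19.01 and 19.06 CPM against 7.63 to 14.8 CPM (0.77 ± 0.104, adjusted p = 1.36e-05). None of the 3 had overlapping groups. ZNF441 fell under the fold threshold without LINC00662 replicate 3 (0.730) or SETD5-AS1 replicate 2 (0.727), and ZNF569 without SETD5-AS1 replicate 1 (0.737) or LINC00641 replicate 3 (0.690). The NC ASO libraries held ZNF793 at 5.19 to 6.52 CPM, ZNF441 at 3.95 to 7.13 CPM and ZNF569 at 22.9 to 29.5 CPM. For ZNF793 and ZNF441 these ranges overlapped those with the LINC00662 ASO. For ZNF569 the NC ASO range lay above it. ZNF442 had 0.87 with an adjusted p of 0.0484.

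The sequences of the ASOs are listed by the study, with 2 or 3 for each target, and which of them went into the sequenced libraries is not given in the sources used here. Each was compared with the genomic span of every member on the transcribed strand. The third LINC00662 ASO is shown because it held the longest run, 18 bases in capitals, that was complementary to a member.

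LINC00662-ASO-3: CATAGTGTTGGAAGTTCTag

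In its target the whole oligonucleotide of 20 bases matched at chr19:28281738-28281757 (hg19, minus strand), in an exon of LINC00662. The 18-base run matched in introns of 5 members: ZNF227 (chr19:44726936-44726953), ZNF567 (chr19:37190844-37190861) and ZNF420 (chr19:37596953-37596970) on the plus strand, and ZNF675 (chr19:23800428-23800445) and ZNF432 (chr19:52558336-52558353) on the minus strand. A run of 17 bases matched in an intron of ZNF93, which had no counts. Matches of at least 14 bases were found in 6 members, or 2.38%, and in 9 other coding genes of the chromosome, or 0.73%. The longest run of the NC ASO in any member was 11 bases.

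All 5 members with the 18-base run were called lower with the LINC00662 ASO against the NC ASO, with a median of -1.07, and were 20.8% of the 24 members called lower there. Against the other targeting ASOs 3 of the 5 were called lower. ZNF675 (TIZ), an inhibitor of TRAF6 signalling, was at 16.1, 17.3 and 18.4 CPM with the LINC00662 ASO and at 33.1, 36.4 and 37.4 CPM with the NC ASO, but it was at 18.5 to 19.7 CPM with the other targeting ASOs (log2 difference -0.13, adjusted p = 0.287). ZNF432 was at 8.27, 8.62 and 8.82 CPM with the LINC00662 ASO, 16.4, 17.8 and 18.3 CPM with the NC ASO and 10.1 to 13.6 CPM with the other targeting ASOs (-0.52, adjusted p = 0.00225). Without the run, 1 of 174 members was called lower in the difference, and their median was -0.07.

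**Figure D5:**
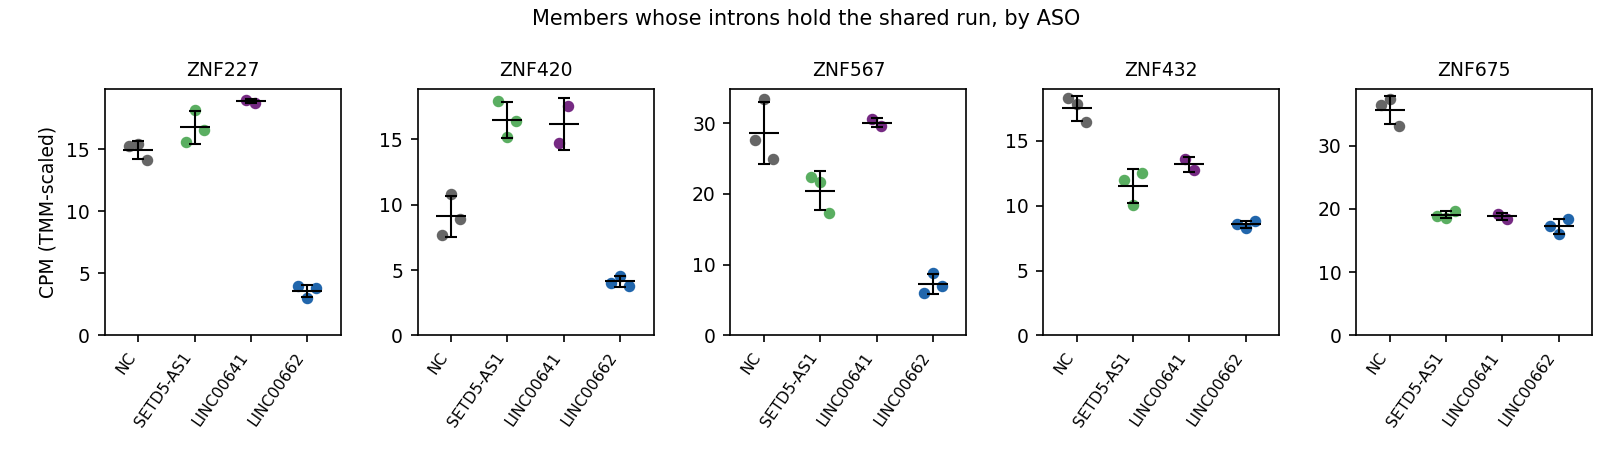
Level in CPM of the 5 members that hold the 18-base run, in each library with the NC ASO and the 3 targeting ASOs; the bars are the mean and SD. The LINC00662 libraries lay below all others for each gene, by far for ZNF227, ZNF420 and ZNF567 and narrowly for ZNF675.

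The run was not limited to these members. With LINC00662 itself left out, it was found on the transcribed strand of 1867 other genes, of which 1193 were tested in the difference, 744 (62.4%) were called lower and 8 were called higher, with a median of -1.30, where 7.32% of all genes were called lower. Few of these matches lay in exons: with LINC00662 counted, 5 of 1195 tested genes held 18 bases within an annotated exon, and 2 of these 5 were called lower. Of the 1346 genes called lower besides LINC00662, 747 held the run, or 55.5%. Of 17210 genes without it, 599 were called lower, or 3.48%. Between the SETD5-AS1 and LINC00641 ASOs the other genes with the run had a median of 0.06, with 15 of 1199 called lower. Against the NC ASO their medians were 0.41 (SETD5-AS1), 0.34 (LINC00641) and -0.77 (LINC00662). The second LINC00662 ASO had a run of 16 bases in 5 members, and of the 3 tested edgeR called 0 lower. Runs of at least 16 bases of that ASO were found in 654 other genes, LINC00662 counted. Of the 496 tested, 73, or 14.7%, were called lower, with a median of 0.00. Genes that also hold the run of the third ASO were not left out of these counts. The run was looked for after the values of these members were seen. Whether the ASO acts on these transcripts was not tested.

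The SETD5-AS1 ASO minus the LINC00641 ASO compared the lncRNAs that the study linked with H3K27me3. Of 179 members, edgeR and DESeq2 both called 0 higher, with 11 at an unadjusted p under 0.05 in that direction, and both called 2 lower, or 1.12%; the backgrounds were 1.04% and 0.682%. With the adjusted p alone, 1 passed higher and 7 lower, against 2.76% and 3.14%. With library totals alone as the scaling, 1 was called higher and 0 lower. ZNF562 was at 16.2, 16.2 and 17.8 CPM with the SETD5-AS1 ASO and 27.8 and 29.7 CPM with the LINC00641 ASO (-0.78 ± 0.109, adjusted p = 0.000544). ZNF256 was at 6.06, 6.66 and 6.91 CPM against 10.3 and 12.4 CPM (-0.79 ± 0.165, adjusted p = 0.0111). Neither had overlapping groups. Both fell under the fold threshold with library totals alone (-0.72 and -0.73) and without LINC00641 replicate 2 (-0.74 and -0.66, adjusted p = 0.0188 and 0.158), which leaves 1 library in that group, and ZNF256 also without SETD5-AS1 replicate 1 (-0.74). Samples with the same number were not shown to be paired, and with the number as a block ZNF256 was at -0.74.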

How the data were processed

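RNA of HCT116 Chrom-seq captures and of HEK293T RNA-seq was analysed in 23 of the 47 samples listed; the other 24 were not analysed here. The deposited values are raw counts per gene, made by the authors from poly(A) libraries, per the study's methods and processing notes, with FastQC 0.11.8, fastp 0.23.1, HISAT2 2.1.0 on hg19 and featureCounts 2.0.1 with GENCODE v19; the strand and multimapping settings are not given in the sources used here. Counts were fitted with edgeR 4.0.16 (R 4.3.3; TMM scaling, quasi-likelihood test), each control comparison on its own 2 groups and each difference on the targeting ASO groups, for genes with more than 3 counts per library in sum. CPM are counts divided by the TMM-scaled library size. Error bars and ± are SD for CPM and SE for log2 fold changes. Depth was 8258859 to 17445889 counts per library. Replicate libraries differed by more than sampling noise in all 22 pairs compared, so none was counted as a duplicate.

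Named members were those with a described role fixed in a list, the 5 largest calls in each direction per control comparison and the 3 largest per difference whose mean count was 20 or more and, for control comparisons, whose groups did not overlap, and up to 8 called in one direction with all 3 ASOs. ZNF350, ZNF175, ZNF536, ZNF507, ZNF223, ZNF599, ZNF442, ZNF675 and ZNF432 were named after their values were seen. The members and lists were chosen with earlier results of these data known. Alternatives were DESeq2 1.42.0, other scalings, no filter, no fold threshold, a replicate block, all ASO groups in one fit, members without gene overlap and each library left out. The fit was tested on simulated data. Sequence matches used the GRCh37 genome with Python 3.11.15.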

Additional observations from a re-analysis of the deposited data

Results flagged for a closer look

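These results were flagged because ASOs with the same control differed from each other in a direct test. Between the LINC00662 ASO and the mean of the other two targeting ASOs, 4 members were higher and 4 were lower. These were 2.23% each, where 2.38% of all genes tested were called higher and 7.32% lower. The log2 differences were -2.31 for ZNF227, -1.98 for ZNF420 and -1.77 for ZNF567, each holding the 18-base run, and 0.87 for ZNF793, 0.81 for ZNF441 and 0.77 for ZNF569, which do not hold it. With the LINC00662 ASO the ranges of ZNF793, ZNF441 and ZNF569 did not lie above those with the NC ASO. Between the SETD5-AS1 and LINC00641 ASOs, 2 members were lower, ZNF562 by a log2 difference of -0.78 and ZNF256 by -0.79. They were 1.12% of the members tested, where 0.682% of all genes tested were called lower.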

How the results depend on the processing

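Over 3433 refits of named members, 3365 kept the side of the threshold, 47 lost a call, 21 gained one and 0 changed direction among called values. Of 296 refits of counts and medians, 219 stayed near the reported value and 77 moved. With no fold threshold, members higher and lower were 16 and 9 with TAF3, 67 and 7 with CBX7, 48 and 51 with SETD5-AS1, 51 and 41 with LINC00641, 47 and 52 with LINC00662, 11 and 22 for LINC00662 minus the others and 1 and 7 for SETD5-AS1 minus LINC00641. Without members that overlap another gene, fewer were tested (51 to 64): TAF3 gave 1 higher (median -0.056), CBX7 12 and 0, SETD5-AS1 6 and 4, LINC00641 7 and 4 (median -0.027), LINC00662 9 and 3 (median -0.001), LINC00662 minus the others 2 and 1, and SETD5-AS1 minus LINC00641 a median of 0.032. With library totals alone, medians were 0.35 with CBX7, 0.15 with SETD5-AS1 (35 and 13 called), 0.074 with LINC00641, 0.006 with LINC00662 and 0.037 for SETD5-AS1 minus LINC00641 (1 and 0 called). With no filter they were 0.36 with CBX7, -0.035 with LINC00641, -0.053 for LINC00662 minus the others and 0.011 for SETD5-AS1 minus LINC00641. DESeq2 gave medians of 0.344 with CBX7 and -0.014 with LINC00641, and its size factors 0.343 and -0.013. All ASO groups in one fit gave a median of -0.078 with LINC00662. The cause of these moves was not tested.

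Leaving out 1 library at a time gave 2 to 4 higher, 0 lower and medians of -0.049 to -0.01 with TAF3, 27 to 32 higher, 0 to 1 lower and 0.298 to 0.359 with CBX7, 19 to 23, 20 to 27 and -0.024 to 0.015 with SETD5-AS1, 23 to 28, 22 to 27 and -0.044 to 0.008 with LINC00641, 21 to 27, 23 to 28 and -0.041 to 0.017 with LINC00662, 2 to 4, 4 to 6 and -0.086 to -0.047 for LINC00662 minus the others, and 0 to 1, 0 to 2 and -0.054 to -0.003 for SETD5-AS1 minus LINC00641. Where 1 LINC00641 library is left it is assumed to vary like the other groups. Same-numbered libraries deviated together only weakly, with correlations of -0.07 to 0.18, and share only a number. With the replicate block the LINC00641 median was -0.037, and SETD5-AS1 minus LINC00641 had 1 higher and 1 lower. The planned comparison of TAF3 capture in HEK293T was not run.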

Other observations

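Promoter composition was read from RefSeq windows on GRCh38.p14 around each gene start. The 215 members with a match held a median of 20 CpG per window, against 14 over all 27305 windows. Members higher with CBX7 had a median of 21 CpG (29 matched), members tested and not called higher also 21 (135 matched), and members not tested 17 (51 matched). The windows are one per gene, and alternative starts were not used.

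A few other partners of the family differed between the ASOs in the direct contrasts. For the LINC00662 ASO minus the others, 1 of 31 was called higher and 2 lower, where 2.38% and 7.32% of all genes were. For the SETD5-AS1 ASO minus the LINC00641 ASO, 1 of 31 was called higher and 0 lower, where 1.04% and 0.682% of all genes were. SMARCAD1, a chromatin remodeller that takes part in H3K9me3 maintenance, was at 17.8 CPM with the LINC00641 ASO, 59.9 CPM with the SETD5-AS1 ASO, 57.4 CPM with the LINC00662 ASO and 64.7 CPM with the NC ASO. The log2 difference between the SETD5-AS1 and LINC00641 ASOs was 1.75 (adjusted p = 6.64e-08). TRIM24, a bromodomain protein of the TRIM28 family, was at 20.6 CPM with the LINC00662 ASO, 76.4 CPM with the SETD5-AS1 ASO, 71.2 CPM with the LINC00641 ASO and 67.9 CPM with the NC ASO. The LINC00662 ASO differed from the mean of the other two by -1.84 (adjusted p = 1.17e-11). ATRX, the remodeller that works with DAXX, was at 148 CPM with the LINC00662 ASO and 281 CPM over the other targeting ASOs (-0.94, adjusted p = 4.24e-07), and between them with the NC ASO, at 216 CPM, where its log2 fold change of -0.48 was under the fold threshold.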
